A study of Mus musculus with 15 samples.

Results

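The genes of the BAFF receptor pathway described here were *Tnfrsf13b, Tnfrsf13c, Tnfrsf17, Tnfsf13b, Traf1, Traf2, Traf3, Traf5, Birc3* and *Map3k14*, taken as a fixed list of 10 of the 41388 mouse genes counted and matched from Ensembl identifier to symbol. BAFF, encoded by *Tnfsf13b*, is a survival factor of mature B cells, and it binds the receptors BAFF-R (*Tnfrsf13c*), TACI (*Tnfrsf13b*) and BCMA (*Tnfrsf17*). In resting B cells the adaptors TRAF2 and TRAF3 and the ubiquitin ligases cIAP1 and cIAP2 (*Birc3*) keep the kinase NIK (*Map3k14*) at a low protein level by marking it for degradation. Engaged BAFF-R draws TRAF3 away, after which NIK accumulates and turns on the non-canonical NF-kB pathway, while TACI and BCMA also feed the canonical pathway.

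RNA was sequenced from A20 parental cells, a BALB/c B-cell lymphoma line with wild-type *Foxp1*, and from 4 A20 lines derived by CRISPR/Cas9, with 3 libraries per line and 15 in all. *Foxp1* encodes a forkhead transcription factor, and clones E6.1 and E6.2 carried frameshift mutations in its exon 6 and clones E7.1 and E7.2 in its exon 7. Each clone descended from a single cell after sorting for transfected cells and dilution. The 3 libraries of a line are described as biological replicates, but the labels give only replicate numbers and do not say whether the cultures were separate, so that p values measure the spread between these libraries, which may be technical, and not that between clones. No clone that went through the same steps without a *Foxp1* mutation was among the 15 libraries, and loss of Foxp1 and clonal selection therefore cannot be told apart.

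Total counts ranged from 26328054 to 39181530 read pairs per library. Normalized *Foxp1* levels were 102, 166 and 147 CPM (counts scaled to library size) in the parental libraries, 99.5 to 109 in the E6 clones and 37.1 to 64.3 in the E7 clones, and the reduction was called in E7.1 and E7.2 (adjusted p = 0.00688 and 0.00116) and not in E6.1 and E6.2 (adjusted p = 0.765 and 0.417, the quasi-likelihood test of edgeR, adjusted by the Benjamini-Hochberg method). A transcript with a frameshift need not fall in level, and these counts do not measure the protein. All 7 B-cell markers (such as *Cd79a* and *Pax5*) were detected, with a summed level of 3005 to 3487 CPM in the parental libraries and 2902 to 4476 CPM in the clones, whereas those for T cells, myeloid cells and fibroblasts summed to at most 2.22, 8.10 and 0.674 CPM, with the T-cell marker *Cd3e* at 0 throughout. Some libraries stood apart. The *Gm42418* locus, which takes up ribosomal RNA reads, held 10.3% of the counts of E6.2 replicate 1 and 2.22% of parental replicate 1, against at most 0.315% elsewhere, mitochondrial genes held 10.4% of E7.2 replicate 3, and the normalization factors of E7.2 replicate 3 and E6.2 replicate 3 were lowest at 0.826 and 0.906. Where leaving out one of these libraries changed a printed call of the 10 genes, the value without it or the number of alternatives that held the call is given. Calls of other genes are given from the fit of all 15 libraries only.

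Expression per length was compared between genes as RPKM, that is CPM per kilobase of exon. *Birc3* was the most abundant of the 10 with a mean of 73.4 RPKM over the 15 libraries, above 93.9% of the 13904 genes that passed the filter on low counts. *Tnfrsf13b* followed at 52.0 RPKM and *Tnfrsf13c* at 13.3 RPKM, so that TACI transcripts outnumbered BAFF-R transcripts in these cells. The adaptors *Traf3, Traf2, Traf5* and *Traf1* lay at 10.2, 6.59, 5.17 and 2.25 RPKM, and *Map3k14* was low at 0.649 RPKM, above 18.3% of the tested genes. *Tnfsf13b* and *Tnfrsf17* were close to the detection limit at 0.168 and 0.0218 RPKM and were the 2 genes of the list that did not pass the filter.

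**Figure D1:**
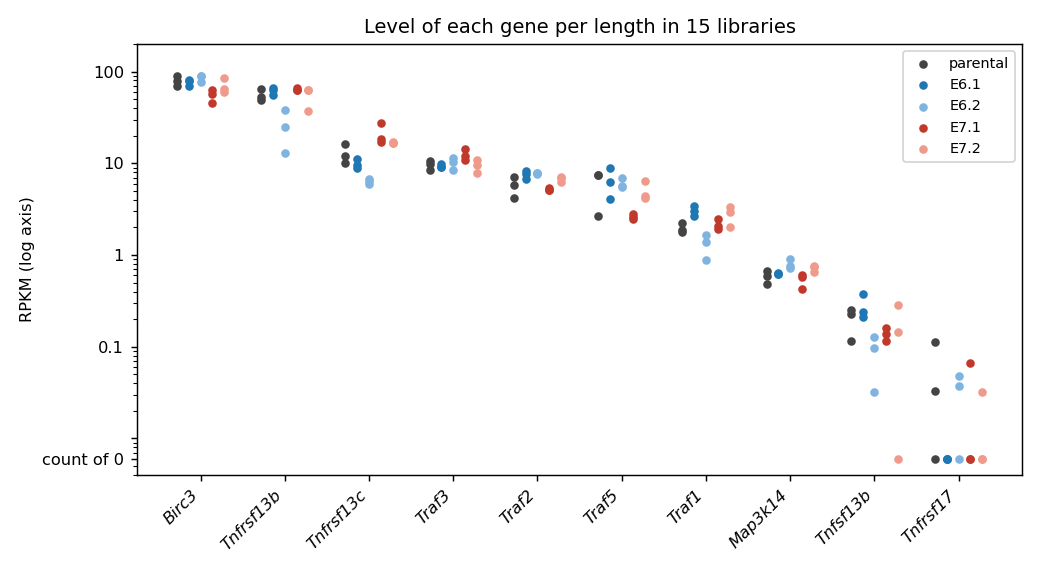
RPKM (log axis) of the 10 genes, ordered by mean level, with each of the 15 libraries as a point coloured by line and counts of 0 drawn at the foot of the axis. *Birc3* and *Tnfrsf13b* stand at 73.4 and 52.0 RPKM on average, and *Tnfsf13b* and *Tnfrsf17* lie near or at 0.

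The ligand gene *Tnfsf13b* (ENSMUSG00000031497, chromosome 8 of GRCm38, 10006843 to 10035441, plus strand) had 81 counts in all 15 libraries together, with 0 to 11 per library. Parental libraries held 7, 4 and 8 counts, E6.1 held 11, 6 and 9, E6.2 held 3, 3 and 1, E7.1 held 4, 5 and 5, and E7.2 held 10, 5 and 0. With 3 counts corresponding to 0.0751 to 0.118 CPM depending on the library, differences between lines were not detectable at this depth, and in a fit without the filter its smallest adjusted p over the 12 comparisons was 0.519. The BCMA gene *Tnfrsf17* (ENSMUSG00000022496, chromosome 16, 11313812 to 11320074, plus strand), a receptor known mainly from plasma cells, had 9 counts in all and none in E6.1, with at most 3 in any library. Its smallest adjusted p without the filter was 0.662, and no fold change is given.

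*Tnfrsf13c* (ENSMUSG00000068105, chromosome 15, 82221744 to 82224339, minus strand) encodes BAFF-R, the receptor through which BAFF maintains mature B cells. Its line means spanned the widest range among the 8 tested genes, 3.29-fold between the highest and the lowest. The parental libraries measured 32.9, 20.1 and 24.4 CPM (25.8 ± 6.53, SD, n = 3), E6.1 17.8, 22.3 and 19.2 CPM (19.8 ± 2.27), and E6.2 12, 13.7 and 12.9 CPM (12.8 ± 0.831). The exon 7 clones were higher, with 55.2, 37.5 and 34.1 CPM in E7.1 (42.2 ± 11.3) and 34.4, 33.5 and 33.8 CPM in E7.2 (33.9 ± 0.489). All E6.2 libraries lay below, and all E7.1 and E7.2 libraries above, the 3 parental libraries, while E6.1 overlapped with them.

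Against parental cells, *Tnfrsf13c* was 2.01-fold lower in E6.2 (log2 fold change -1.0, SE 0.20, adjusted p = 0.0227). Of the 32 tests of the 8 genes that passed the filter in the 4 clones, this was the only call, and over all tested genes 1.17% were called in E6.2 and 1.01% were called lower (all by the quasi-likelihood test of edgeR, adjusted by the Benjamini-Hochberg method). Of the 7 B-cell markers, only *Ms4a1* (CD20) was called in E6.2 (log2 fold change -0.91, adjusted p = 0.0227), at 350 CPM against 658 CPM in parental cells and 460 to 598 CPM in the other clones, and the other 6 ranged from -0.66 (*Ebf1*) to 0.21 (*Cd74*). *Prdm1*, a regulator of plasma cell differentiation, was lower in E6.2 (-2.58, adjusted p = 0.0108, edgeR), and the part of either in the *Tnfrsf13c* difference was not tested. *Tnfrsf13c* was not called in the other clones, where edgeR gave log2 fold changes of -0.38 for E6.1 with an adjusted p of 0.821, 0.71 for E7.1 with 0.0758 and 0.40 for E7.2 with 0.401. The E7.1 difference was called in 6 of 25 alternatives, among them the fits that left out parental replicate 1 (0.94, adjusted p = 0.0163) or the third E6.2 library (0.73, adjusted p = 0.0414, edgeR). The E6.2 call was lost without parental replicate 1 (log2 fold change -0.78, adjusted p = 0.120), parental replicate 3 (-1.04, 0.0607), E6.2 replicate 1 (-0.97, 0.0811) or E6.2 replicate 3 (-0.99, 0.0540), in a fit of only the 6 libraries compared (-1.0, 0.216) and without E6.2 replicates 1 and 3 and E7.2 replicate 3 together (-0.92, adjusted p = 0.330, edgeR).

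*Tnfrsf13c* separated the clones by the exon targeted. All 6 libraries of the E7 clones lay above all 6 of the E6 clones, and the mean of E7.1 and E7.2 was 2.37-fold higher than that of E6.1 and E6.2 (log2 fold change 1.25, SE 0.14, adjusted p = 0.000212, edgeR). Of all tested genes, 12.1% were called in this contrast, and 1.81% had libraries that did not overlap with E7 higher. Each exon was represented by only 2 clones, so that exon and clone cannot be told apart. When the counts of each clone were summed and each clone was taken as 1 sample, the log2 fold change was 1.26 and the adjusted p was 0.362, with 1 of the 13904 genes called in that fit, and an exact test of 2 clones against 2 cannot give a two-sided p under 0.333.

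Between single clones, *Tnfrsf13c* was 3.29-fold higher in E7.1 than in E6.2 (log2 fold change 1.72, adjusted p = 0.000271), 2.64-fold higher in E7.2 than in E6.2 (1.40, adjusted p = 0.00156) and 2.14-fold higher in E7.1 than in E6.1 (1.09, adjusted p = 0.0133). The last of these was lost without E6.1 replicate 1 (adjusted p = 0.0917), E6.1 replicate 3 (0.0907) or E7.1 replicate 1 (0.0697, edgeR). E7.2 against E6.1 (0.78, adjusted p = 0.159), E6.2 against E6.1 (-0.62, adjusted p = 0.186) and E7.2 against E7.1 (-0.32, adjusted p = 0.488) were not called. From high to low the order was E7.1, E7.2, parental, E6.1 and E6.2, and no neighbours in that order differed at the threshold, although E7.2 libraries did not overlap with parental ones, nor E6.1 libraries with those of E6.2. Over the 15 libraries and 13903 other genes, the log2 levels of *Fam107b, Sgk3* and *Gstt3* were most like those of *Tnfrsf13c* (Pearson r = 0.96 for each), which is a description of these 5 lines only.

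*Tnfrsf13b* (ENSMUSG00000010142, chromosome 11, 61126755 to 61149372, plus strand) encodes TACI, a receptor for BAFF and its relative APRIL. The parental libraries measured 182, 151 and 139 CPM (157 ± 22), E6.1 158, 177 and 189 CPM (174 ± 15.7), E7.1 186, 178 and 179 CPM (181 ± 4.54), and E7.2 177, 177 and 106 CPM (153 ± 40.7). E6.2 was lowest, with 70.5, 107 and 37.0 CPM (71.6 ± 35.1), below every parental, E6.1 and E7.1 library. The E6.2 libraries were also widely spread, and the 106 CPM of E7.2 replicate 3 fell beside the highest of them.

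Against parental cells the *Tnfrsf13b* difference in E6.2 was not called (log2 fold change -1.14, SE 0.29, adjusted p = 0.0904), and in the other clones it ranged from -0.04 to 0.20. *Tnfrsf13b* was lower in E6.2 than in E6.1 (-1.29, SE 0.29, adjusted p = 0.0480) and higher in E7.1 than in E6.2 (1.34, SE 0.29, adjusted p = 0.0117), whereas E7.2 against E6.2 was not called (1.10, adjusted p = 0.0671, edgeR). E7.2 against E6.2 was called with the replicate number as a block shared by all 5 lines (1.13, adjusted p = 0.0482, edgeR), which is not a paired test of these 2 clones. It was also called without E6.2 replicate 3 (0.80, adjusted p = 0.0321) or E7.2 replicate 3 (1.34, adjusted p = 0.0176, edgeR). The E6.2 difference from parental cells was called without both of these libraries (-0.83, adjusted p = 0.0233) and without E6.2 replicate 2, in 5 of 25 alternatives in all. The call against E6.1 was held in only 9 of 25 alternative analyses and was lost in 13 of the 15 that left out a library, with adjusted p values of up to 0.171, for instance 0.137 without E6.2 replicate 1 and 0.0563 without E6.2 replicate 3, and it was 0.288 in a fit of only the lines compared. That of E7.1 against E6.2 was lost in 1 of 25, the fit of only the lines compared (adjusted p = 0.0550, edgeR). The E7 against E6 contrast for *Tnfrsf13b* was 0.58 (SE 0.20, adjusted p = 0.0765), called without E6.2 replicate 3 (0.44, 0.0421), without E7.2 replicate 3 (0.71, adjusted p = 0.0262, edgeR) or without E6.2 replicate 2. In order the lines ran E7.1, E6.1, parental, E7.2 and E6.2 with no neighbours called. The summed level of 4 plasma cell markers (*Sdc1, Prdm1, Jchain* and *Tnfrsf17*, none at 0 in every library) was also lowest in E6.2. It was 861 to 1160 CPM there, 1383 to 1908 CPM in parental cells and 1442 to 2000 CPM in the other clones. Nearly all of this sum was *Jchain* (1024 CPM in E6.2), so it says little of the others. *Sdc1* and *Prdm1* also had their lowest means in E6.2 (0.985 and 1.89 CPM, against 3.16 and 11.3 CPM in parental cells). *Prdm1* was below the parental level in E6.1 (6.14 CPM) and E7.1 (6.56 CPM) too. The part of these markers in the receptor levels was not tested.

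**Figure D2:**
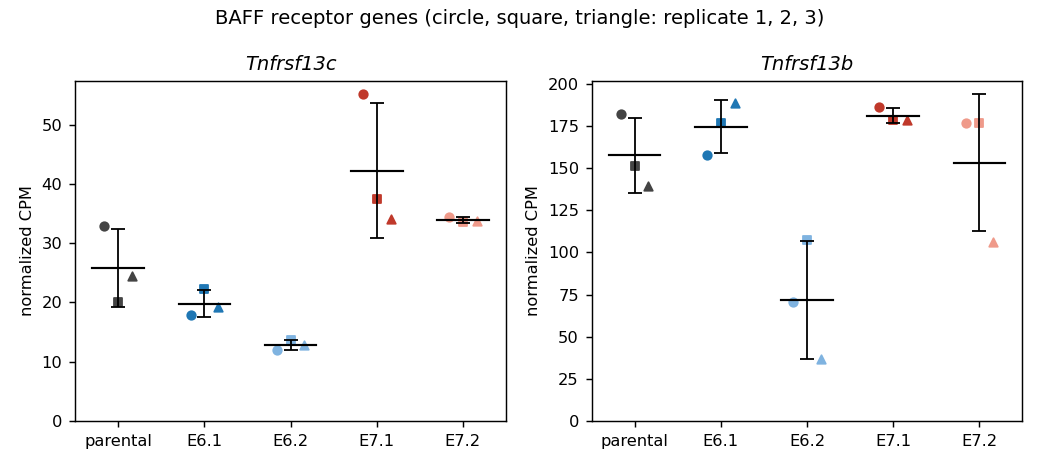
Normalized CPM of *Tnfrsf13c* and *Tnfrsf13b* in the 5 lines, with 1 point per library (circle, square and triangle for replicates 1, 2 and 3) and the bar and whiskers at the mean and SD of 3 libraries. *Tnfrsf13c* is lowest in E6.2 at 12.8 CPM and highest in E7.1 at 42.2 CPM, and *Tnfrsf13b* is lowest in E6.2 at 71.6 CPM.

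Because Foxp1 is a forkhead factor and *Tnfrsf13c* and *Tnfrsf13b* were the receptors that differed between clones, their promoter windows are shown, from 250 bases before to 50 bases after the RefSeq start in GRCm38.p6, in the direction of transcription. *Tnfrsf13c* lies at chr15:82224331-82224630 on the minus strand and *Tnfrsf13b* at chr11:61126505-61126804 on the plus strand, and capitals mark a match to the forkhead letters TGTTTAC or TATTTAC searched on both strands.
Tnfrsf13c: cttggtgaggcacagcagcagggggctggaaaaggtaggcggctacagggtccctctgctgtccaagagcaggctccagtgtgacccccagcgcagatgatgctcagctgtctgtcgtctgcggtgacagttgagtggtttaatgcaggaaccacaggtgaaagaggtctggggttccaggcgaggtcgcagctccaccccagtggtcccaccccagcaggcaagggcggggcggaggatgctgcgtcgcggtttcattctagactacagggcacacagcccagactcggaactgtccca
Tnfrsf13b: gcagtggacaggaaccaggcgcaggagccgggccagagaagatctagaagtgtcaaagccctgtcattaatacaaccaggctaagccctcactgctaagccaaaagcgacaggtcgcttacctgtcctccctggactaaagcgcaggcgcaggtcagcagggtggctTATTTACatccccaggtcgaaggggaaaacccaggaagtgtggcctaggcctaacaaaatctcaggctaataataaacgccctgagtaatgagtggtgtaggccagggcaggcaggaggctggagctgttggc
The *Tnfrsf13b* window held 1 match, TATTTAC beginning at position -83 from the start, and the *Tnfrsf13c* window held none. Among 32851 such windows of 27025 genes, 6.54% held at least 1 forkhead match. Windows were found for 10 of the 10 genes (11 windows), and *Tnfrsf13b* was the only gene of the list with a forkhead match. An NF-kB consensus site, searched by the kB consensus on both strands and present in 8.46% of all windows, matched only in *Traf3*, beginning at position -10. A match describes the letters of the window and not binding, and no match says nothing of the factor.

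*Traf1* (ENSMUSG00000026875, chromosome 2, 34941750 to 34961772, minus strand) encodes an adaptor that NF-kB induces and that joins TRAF2 at several receptors. It measured 11.2, 9.56 and 9.0 CPM in parental cells (9.92 ± 1.16), 15.1, 17.5 and 13.6 in E6.1 (15.4 ± 1.96), 6.97, 8.29 and 4.42 in E6.2 (6.56 ± 1.96), 10.4, 12.6 and 9.75 in E7.1 (10.9 ± 1.5) and 14.8, 16.9 and 10.2 in E7.2 (13.9 ± 3.43). The E6.1 libraries lay above and the E6.2 libraries below all parental libraries, so the 2 clones of exon 6 stood at the opposite ends of the order. Neither was called against parental cells (log2 fold change 0.63, adjusted p = 0.559 in E6.1 and -0.60, adjusted p = 0.317 in E6.2), but *Traf1* was lower in E6.2 than in E6.1 (-1.23, SE 0.24, adjusted p = 0.0179, edgeR). It was higher in E7.2 than in E6.2 (1.09, SE 0.24, adjusted p = 0.0299) and in E7.1 than in E6.2 (0.74, SE 0.24, adjusted p = 0.0496). The E7.1 call was held in only 7 of 25 alternatives, and the others were lost without E6.2 replicate 1, with adjusted p values of 0.0557 against E6.1 and 0.0688 for E7.2 (edgeR). That against E6.1 was also lost without E6.2 replicate 3 (0.0516), E6.1 replicate 1 (0.0561) or E6.1 replicate 2 (0.0944), and that of E7.2 without E7.2 replicate 1 (0.108) or replicate 2 (0.150), and both in fits of only the lines compared (0.182 and 0.348, edgeR).

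*Traf2* (ENSMUSG00000026942, chromosome 2, 25517982 to 25546940, minus strand) encodes the adaptor that holds the cIAP ligases in the complex that degrades NIK. Parental libraries measured 21.3, 36.2 and 29.7 CPM (29.1 ± 7.42), a wider spread than in any clone, E6.1 41.6, 34.0 and 39.0 (38.2 ± 3.86), E6.2 40.4, 40.3 and 39.1 (39.9 ± 0.723), E7.1 27.2, 26.0 and 26.3 (26.5 ± 0.605) and E7.2 35.1, 35.7 and 32.1 (34.3 ± 1.93). All E6.2 libraries were above the parental ones (log2 fold change 0.46, adjusted p = 0.244), and E7.1 lay within the parental range. *Traf2* was lower in E7.1 than in E6.2 (-0.59, SE 0.16, adjusted p = 0.0256) and, for the mean of the E7 against that of the E6 clones, lower by a log2 fold change of -0.37 (SE 0.11, adjusted p = 0.0458, edgeR), although the libraries of E7.2 and E6.1 overlapped. The latter call was held in 9 of 26 alternatives and was lost in 11 of the 15 that left out a library, and with each clone as 1 sample its adjusted p was 0.455. The former was lost without E6.2 replicate 1 (0.0648) or any library of E7.1 (0.0710 to 0.0795), and with no filter on low counts (0.0568, edgeR).

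*Traf3* (ENSMUSG00000021277, chromosome 12, 111166370 to 111267153, plus strand) encodes the adaptor that binds NIK and BAFF-R directly. Levels ran from 62.6 to 77.9 CPM in parental cells (70.8 ± 7.69), 66.7 to 71.9 in E6.1 (68.6 ± 2.86), 61.8 to 84.4 in E6.2 (74.0 ± 11.4) and 58.1 to 80.2 in E7.2 (69.5 ± 11.1), whereas the E7.1 libraries measured 104, 79.3 and 88.1 CPM (90.5 ± 12.6). E7.1 was thus above every parental library, but the difference was not called (log2 fold change 0.35, SE 0.15, adjusted p = 0.219, edgeR) except without replicate 3 of both E6.2 and E7.2 (0.38, adjusted p = 0.0427) or these and E6.2 replicate 1 (0.36, adjusted p = 0.0459). In the fit of all libraries *Traf3* was called in none of the 12 comparisons, and it had the narrowest range of line means among the 8 tested genes, 1.32-fold between the highest and the lowest.

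*Traf5* (ENSMUSG00000026637, chromosome 1, 191997430 to 192092559, minus strand) encodes an adaptor that works beside TRAF2 at several receptors. Its counts are less certain, because 188 of its 1964 exon bases (9.57%) are shared with *Gm26879* on the other strand and pairs were counted without regard to strand. Parental libraries measured 5.17, 14.5 and 14.6 CPM (11.4 ± 5.39), E6.1 17.3, 8.05 and 12.4 (12.6 ± 4.61), E6.2 10.9, 13.5 and 11.1 (11.9 ± 1.47), E7.1 5.11, 5.54 and 4.80 (5.15 ± 0.371) and E7.2 8.72, 8.18 and 12.6 (9.82 ± 2.40). E7.1 was low in every library, but so was parental replicate 1. The difference between E7.1 and parental cells was not called (log2 fold change -1.15, SE 0.35, adjusted p = 0.0964) but was without that parental library (-1.47, adjusted p = 0.0120), and in 5 of 25 alternatives in all (edgeR and DESeq2). *Traf5* was lower in E7.1 than in E6.2 (-1.20, SE 0.35, adjusted p = 0.0345, edgeR). That call was lost without E6.1 replicate 3 (0.0517), E6.2 replicate 1 (0.0641), E6.2 replicate 2 (0.0753) or any library of E7.1 (0.0744 to 0.111), and E7 against E6 gave -0.78 (adjusted p = 0.0522), with a call in 10 of 26 alternatives, such as without parental replicate 1 (0.0149), E6.2 replicate 3 (0.0403) or E7.2 replicate 3 (0.0356, edgeR).

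*Birc3* (ENSMUSG00000032000, chromosome 9, 7848699 to 7873186, minus strand) encodes cIAP2, the ubiquitin ligase of the complex and itself an NF-kB target. Parental libraries measured 348, 398 and 452 CPM (399 ± 51.9), E6.1 407, 349 and 393 (383 ± 30.1), E6.2 449, 447 and 386 (427 ± 35.8), E7.1 230, 314 and 283 (276 ± 42.5) and E7.2 302, 327 and 429 (352 ± 67.1). E7.1 lay below every library of parental cells, E6.1 and E6.2 and overlapped with E7.2. Against parental cells it was not called (log2 fold change -0.53, SE 0.17, adjusted p = 0.103, and 0.0293 without replicate 3 of both E6.2 and E7.2), and *Birc3* was lower in E7.1 than in E6.2 (-0.63, SE 0.17, adjusted p = 0.0254, edgeR). That call was lost without E6.2 replicate 1 (0.0719), E6.2 replicate 2 (0.0532), E7.1 replicate 1 (0.113) or E7.1 replicate 3 (0.0686), with no filter (0.0571) and with only the lines compared (0.103), and E7 against E6 gave -0.38 (adjusted p = 0.0540), which was called without E6.2 replicate 3 (0.0298) or E7.2 replicate 3 (0.0215, edgeR). Its close relative *Birc2*, which encodes cIAP1, was present at 17.2 RPKM beside the 73.4 RPKM of *Birc3*.

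*Map3k14* (ENSMUSG00000020941, chromosome 11, 103219762 to 103267472, minus strand) encodes NIK, whose amount is known to be set mainly by degradation of the protein, which counts of RNA do not show. Of its 6550 exon bases, 135 (2.06%) are shared with *1700028N14Rik*. Levels were 3.14, 4.41 and 3.87 CPM in parental cells (3.81 ± 0.633), 4.02 to 4.16 in E6.1 (4.09 ± 0.0666), 4.68, 4.96 and 5.86 in E6.2 (5.17 ± 0.617), 2.81 to 3.97 in E7.1 (3.51 ± 0.615) and 4.25 to 5.0 in E7.2 (4.68 ± 0.389). All E6.2 libraries exceeded the parental ones, with a log2 fold change of 0.44 that was not called (SE 0.21, adjusted p = 0.382), and *Map3k14* was called in none of the 12 comparisons. Its largest difference was between E7.1 and E6.2 (-0.56, adjusted p = 0.0750, edgeR), whose libraries did not overlap.

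**Figure D3:**
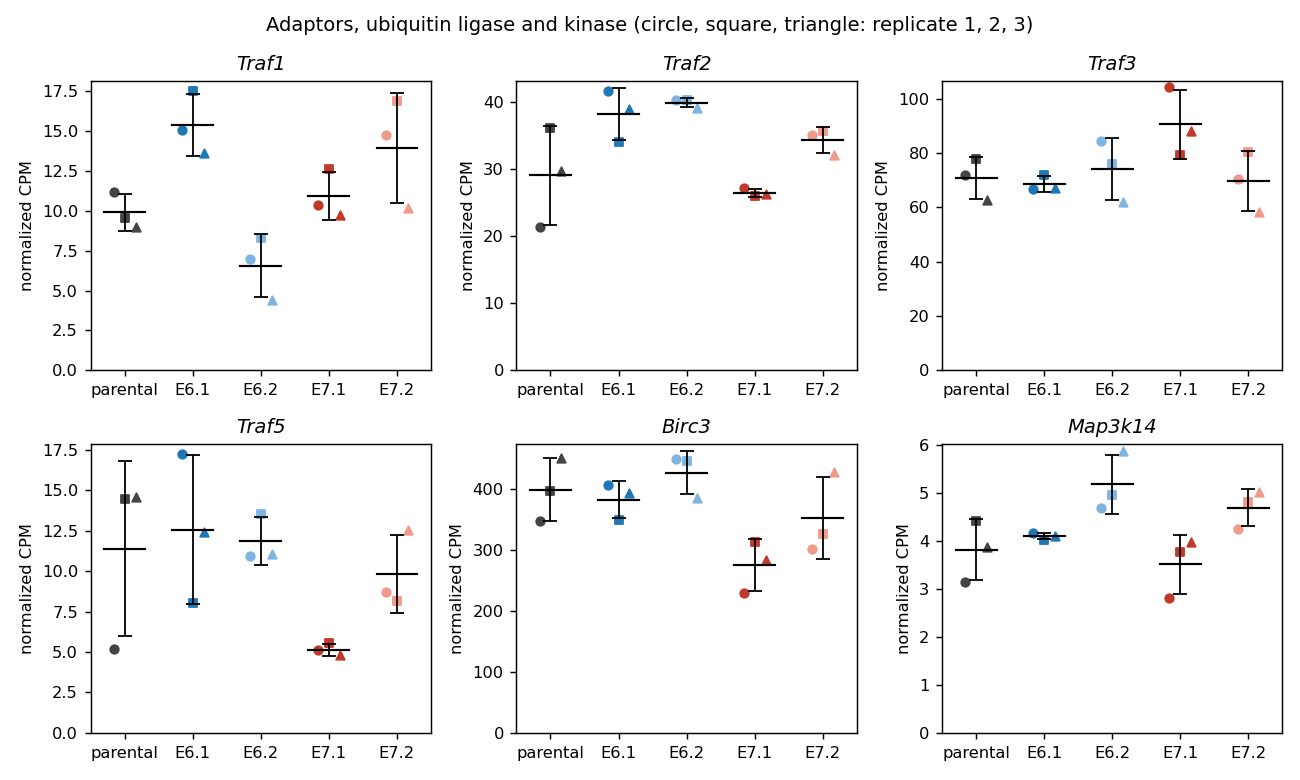
Normalized CPM of *Traf1, Traf2, Traf3, Traf5, Birc3* and *Map3k14* in the 5 lines, with 1 point per library and the bar and whiskers at the mean and SD of 3 libraries. *Traf1* runs from 6.56 CPM in E6.2 to 15.4 CPM in E6.1, and *Traf5* and *Birc3* are lowest in E7.1 at 5.15 and 276 CPM.

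The comparisons with parental cells held few calls. In E6.1, 0 of the 8 tested genes were called by edgeR or by DESeq2's Wald test, against 0.324% and 1.11% of all tested genes, and 2 had an unadjusted p under 0.05, against 6.71%. In E6.2 edgeR called 1 (*Tnfrsf13c*) and DESeq2 called 2 (*Tnfrsf13b* and *Tnfrsf13c*), against 1.17% and 2.86% of all tested genes. There 4 had an unadjusted p under 0.05, for which the share of all tested genes is not reported here. In E7.1 edgeR called 0 and DESeq2 called 3 (*Tnfrsf13c, Traf5* and *Birc3*), against 1.22% and 8.32% of all tested genes, and 4 had an unadjusted p under 0.05, against 20%. In E7.2 both called 0, against 0.295% and 1.83%, and 0 had an unadjusted p under 0.05, against 13.3%. Libraries did not overlap with the parental ones for 5 of the 8 genes in E6.2, 2 higher (*Traf2* and *Map3k14*) and 3 lower (*Tnfrsf13b, Tnfrsf13c* and *Traf1*), where this held for 14.7% of all tested genes. The same count was 3 in E7.1 (*Tnfrsf13c* and *Traf3* higher and *Birc3* lower), 1 in E6.1 (*Traf1* higher) and 1 in E7.2 (*Tnfrsf13c* higher), beside 32%, 22.5% and 24.2% of all tested genes. For the mean of the 4 clones 0 of 8 genes were called by edgeR or by DESeq2, against 0.503% and 1.28% of all tested genes, 0 had an unadjusted p under 0.05, against 9.9%, and the log2 fold changes lay between -0.29 (*Traf5*) and 0.24 (*Traf2*). The 4 comparisons share the parental libraries. The median log2 fold change of the 8 genes was 0.12 for E6.1 and 0.06 for E6.2, and 0.01 for E7.1 and 0.11 for E7.2, where the median over all tested genes lay between -0.02 and 0.06.

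The comparisons between clones held more calls. Of the 48 tests of 8 genes in 6 clone pairs, 11 were called, and 10 of these involved E6.2. E7.1 against E6.2 held 6 of them (*Tnfrsf13b, Tnfrsf13c* and *Traf1* higher and *Traf2, Traf5* and *Birc3* lower in E7.1), where 16.9% of all tested genes were called. E7.2 against E6.2 and E6.2 against E6.1 held 2 each, beside 2.24% and 1.24% of all tested genes, and E7.1 against E6.1 held 1 beside 3.24%. In E7.2 against E6.1 and E7.2 against E7.1, 0 of 8 were called by edgeR and 1 and 0 by DESeq2, beside 0.352% and 0.59% of all tested genes by edgeR and 1.69% and 2.06% by DESeq2. An unadjusted p under 0.05 was reached by 1 and 3 of the 8, beside 11.6% and 13.3% of all tested genes. In all, 6 of the 8 genes (75%) were called in at least 1 pair, against 18.4% of all tested genes, and 1 of 8 (12.5%) in at least 1 clone against parental cells, against 2.49%. Without E6.2 replicate 1 the count over the 6 pairs fell from 11 to 4, and without E7.1 replicate 1 to 5, while in E7.1 against E6.2 the share of all tested genes called fell from 16.9% to 9.58% and 3.76%. Without both replicate 3 libraries of E6.2 and E7.2 the count against parental cells was 6 instead of 1, of which 4 were in E7.1 and 2 in E6.2, while the share of all tested genes called rose as well, to 15.2% in E7.1 and 2.26% in E6.2.

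**Figure D4:**
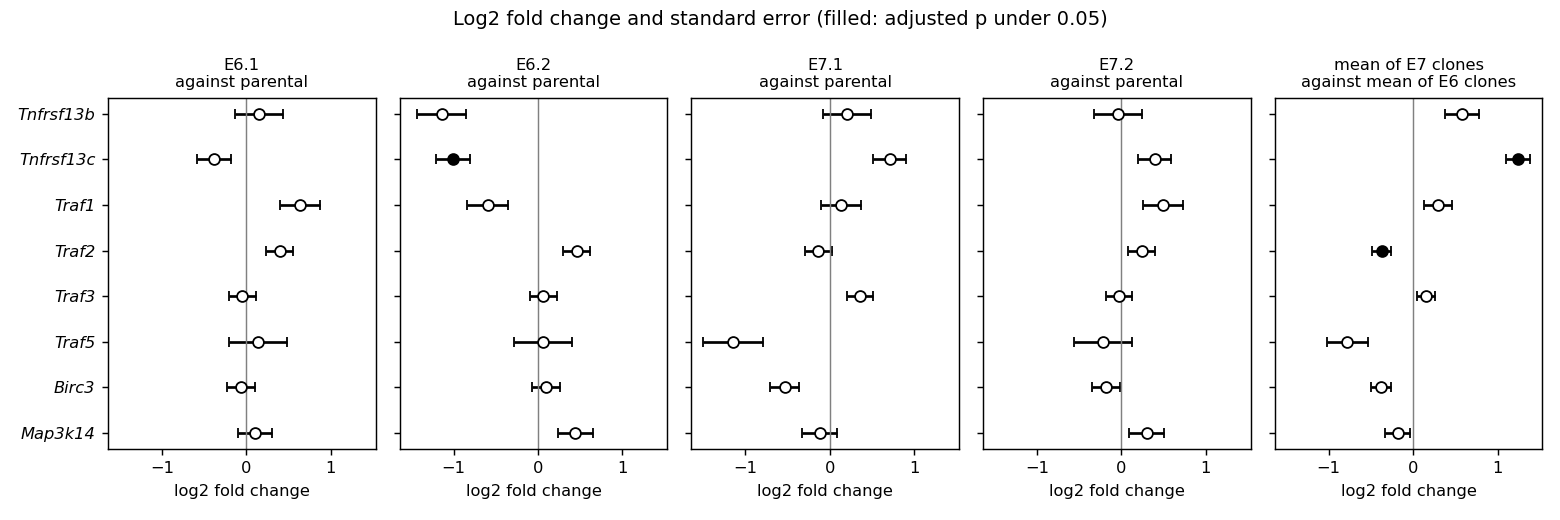
Log2 fold change of the 8 tested genes (horizontal axis, with the standard error as a bar) in the 4 clones against parental cells and in E7 against E6 clones, with filled points at an adjusted p under 0.05. *Tnfrsf13c* is filled in E6.2 at -1.0 and in E7 against E6 at 1.25, and *Traf2* in E7 against E6 at -0.37.

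In E7 against E6, 2 of the 8 genes were called, *Tnfrsf13c* higher and *Traf2* lower, beside 12.1% of all tested genes. An unadjusted p under 0.05 was reached by 5 of the 8, beside 30.3% of all tested genes. The median log2 fold change was -0.01 beside -0.03 for all tested genes. Over the 15 libraries, log2 levels of *Tnfrsf13b* and *Traf1* had a Pearson r of 0.85, those of *Tnfrsf13c* and *Tnfrsf13b* of 0.66, those of *Tnfrsf13c* and *Birc3* of -0.78 and those of *Tnfrsf13c* and *Traf2* of -0.74. These values describe 5 lines with shared libraries and normalization, and not independent samples.

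Other genes of the pathway were taken from lists of 36 genes, of which 31 passed the filter. Among other ligands of the family, *Ltb* (lymphotoxin beta), *Lta* and *Tnf* were expressed at 104, 9.86 and 5.51 RPKM, whereas *Tnfsf13* (APRIL), *Tnfsf12* (TWEAK) and *Cd40lg* did not pass it, at 0.0289, 0.0450 and 0.0154 RPKM, so that transcripts of both BAFF and APRIL lay near the detection limit. The receptors *Cd40, Tnfrsf1b* and *Cd27* were tested, and *Ltbr* and *Tnfrsf1a* were near 0. All 10 other adaptors and ubiquitin factors, such as *Traf6* at 15.7 RPKM and *Ube2n* at 35.5 RPKM, were tested. Of these, 0 were called in any clone against parental cells or in E7 against E6 (edgeR), beside 2.49% and 12.1% of all tested genes. An unadjusted p under 0.05 was reached by 4 of them in E7.1, 1 in each other clone and 6 in E7 against E6. Of all tested genes, 20% reached it in E7.1, 6.71% in E6.1, 13.3% in E7.2 and 30.3% in E7 against E6. The share for E6.2 is not reported here. *Nfkb2*, the substrate that the pathway processes, was abundant at 104 RPKM.

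Against parental cells, 1 of the 31 genes was called in 1 clone, E7.2, where 0.295% of all tested genes were called. *Cflar*, which encodes the caspase inhibitor c-FLIP, fell from 72.2 ± 3.17 CPM in parental cells to 33.9 ± 1.57 CPM in E7.2 (log2 fold change -1.09, SE 0.18, adjusted p = 0.0225), and it measured 41.9 and 45.4 CPM in the E6 clones and 45.6 CPM in E7.1, where it was not called. For the mean of the 4 clones it was lower by a log2 fold change of -0.80 (SE 0.13, adjusted p = 0.0122, edgeR). The median log2 fold changes of the 31 genes were -0.05 and 0.04 in the E6 clones and -0.05 and 0.16 in the E7 clones.

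In E7 against E6, 5 of the 31 genes were called, beside 12.1% of all tested genes, and they are named after their values were seen. *Cxcr5*, the receptor that guides B cells into follicles, was higher in the E7 clones (log2 fold change 1.36, adjusted p = 0.00337), with 42.3 ± 6.72 and 44.4 ± 6.72 CPM in E7.1 and E7.2, 18.9 ± 3.94 and 15 ± 6.51 CPM in E6.1 and E6.2 and 30.3 ± 11.0 CPM in parental cells. Its line means thus took nearly the order of *Tnfrsf13c*, with the E7 clones above and the E6 clones below parental cells. *Tnfrsf1b*, the TNF receptor 2 gene, was also higher (0.44, adjusted p = 0.0421). *Bcl2l1*, which encodes the survival protein Bcl-xL, was lower in the E7 than in the E6 clones (-0.90, adjusted p = 0.00870), as was *Chuk*, the kinase IKK alpha (-0.44, adjusted p = 0.0302, edgeR). *Bcl2l1* measured 281 CPM in E7.1 and 418 CPM in E7.2, and 604 and 682 CPM in E6.1 and E6.2. The parental level was 447 ± 169 CPM, so E7.2 lay near it and the E6 means above it. For *Relb*, the Rel partner of the processed Nfkb2 protein, the mean of the E7 clones was lower (-0.74, adjusted p = 0.0374, edgeR). *Relb* was low in E7.1 at 16.7 CPM and high in E6.2 at 45.4 CPM. Its levels in E7.2 (29.6 CPM) and E6.1 (30.5 CPM) were close to the parental 29.4 CPM. The median of the 31 genes was -0.01. As for *Tnfrsf13c*, these differences compare 2 clones with 2.

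**Figure D5:**
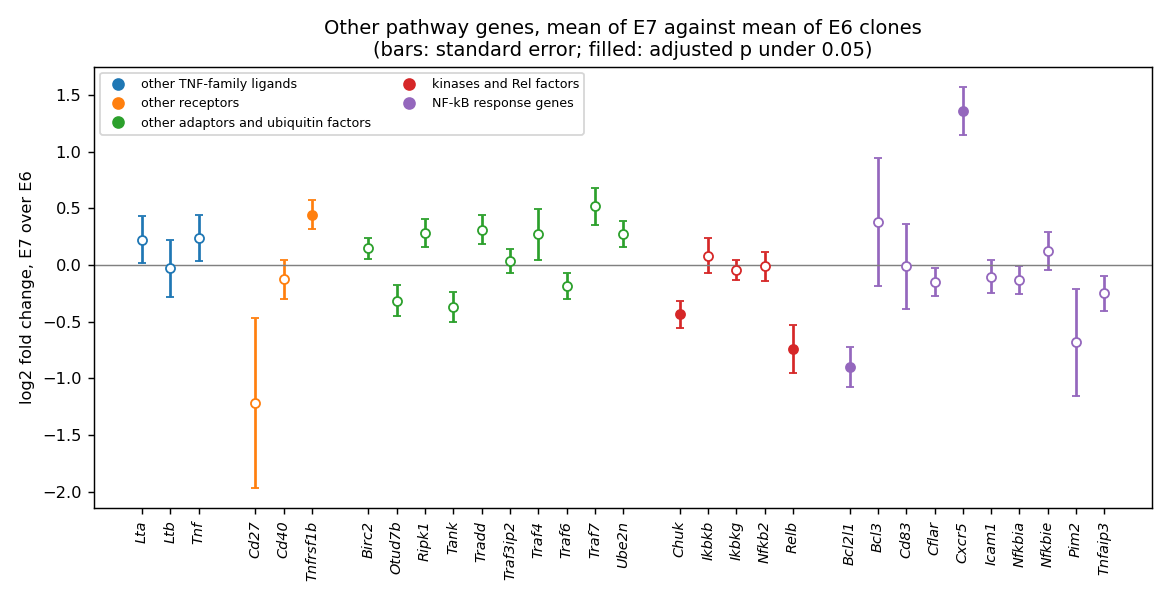
Log2 fold change of the mean of the E7 clones over the mean of the E6 clones for the 31 tested pathway genes (1 point per gene with its standard error, coloured by list, filled at an adjusted p under 0.05). *Cxcr5* at 1.36 and *Tnfrsf1b* at 0.44 are filled above 0, and *Bcl2l1* at -0.90, *Relb* at -0.74 and *Chuk* at -0.44 below it.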

How the data were processed

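The authors aligned read pairs from poly(A) RNA with HISAT and counted them per gene with featureCounts 1.5.0 on GRCm38 (mm10), without regard to strand, leaving out pairs that aligned or overlapped at several places, and deposited the raw counts of each library. The 92 spike-ins, with a total count of 0, were left out. Symbols were matched for 40254 of 41388 genes. In R 4.3.3, edgeR 4.0.16 was used with filterByExpr (13904 genes), TMM and 1 quasi-likelihood fit of all 15 libraries by line. The Benjamini-Hochberg method was applied over all tested genes within each of 12 comparisons, and a gene counted as called where its adjusted p was under 0.05, whatever its fold. CPM was TMM-normalized, and RPKM used exon lengths from the deposited tables. Log2 levels for correlations had a prior count of 2. The floor of 3 counts covers counting error only. No 2 libraries were identical, and replicate numbers come from the labels. Deviations of same-numbered libraries from their line means correlated over 0.1 in all 3 pairs of E6.2 with E7.2 (0.174 to 0.426). In no other pair of lines were all 3 over 0.1. The replicate block was a term shared by all lines, and no pairing of particular lines was fitted. The fit was tested on simulated data.

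The genes and lists were chosen with earlier results of these data known. All members and *Foxp1* were named, together with genes of the pathway lists called against parental cells and the 3 genes most like the member called against parental cells. Alternatives were DESeq2 1.42.0 (size factors and Wald test), a likelihood ratio test, no filter, a 2-fold threshold, fits of only the lines compared, a replicate block and leaving out libraries. RefSeq promoter windows of GRCm38.p6 were used, since that is the build of the counts.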

Additional observations from a re-analysis of the deposited data

Results flagged for a closer look

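Effects that differed between clones by a test of the difference itself were found for 6 genes. They are given as log2 fold changes with the quasi-likelihood test of edgeR, adjusted by the Benjamini-Hochberg method, and explanations for them were not tested. Between the means of the E7 and the E6 clones, *Tnfrsf13c* differed by 1.25 and *Traf2* by -0.37. E6.2 against E6.1, which carry mutations in the same exon, differed by -1.29 for *Tnfrsf13b* and by -1.23 for *Traf1*. E7.1 against E6.1 differed by 1.09 for *Tnfrsf13c*. In E7.1 against E6.2 the differences were 1.34 for *Tnfrsf13b*, 1.72 for *Tnfrsf13c*, 0.74 for *Traf1*, -0.59 for *Traf2*, -1.20 for *Traf5* and -0.63 for *Birc3*. E7.2 against E6.2 differed by 1.40 for *Tnfrsf13c* and by 1.09 for *Traf1*. Some of these calls were mostly lost in the alternatives. *Traf1* in E7.1 against E6.2 was held in 7 of 25, *Tnfrsf13b* in E6.2 against E6.1 in 9 of 25 and *Traf2* in E7 against E6 in 9 of 26. Their adjusted p values were 0.0496, 0.0480 and 0.0458 (edgeR). Groups of 3 libraries were too small to test single libraries as outliers.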

How the results depend on the processing

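Of the 14 called results, *Tnfrsf13c* in E7.1 against E6.2 and in E7.2 against E6.2 were called under every alternative, *Tnfrsf13c* in E7 against E6 under all but the fit with summed clones, and 0 changed sign. Of 82 uncalled results, 16 were called under some alternative. The count over the 4 clones against parental cells, 1 as reported, was 2 with no filter, 5 with DESeq2's Wald test, 4 with the likelihood ratio test, 0 with only the lines compared and 6 without replicate 3 of E6.2 and E7.2. Leaving out 1 library gave 0 to 2. Of all tested genes, DESeq2 called 8.32% in E7.1 and 2.86% in E6.2, beside 1.22% and 1.17% as reported. The likelihood ratio test called 5.38% and 2.24%. With no filter both calls were in E6.2, where 0.839% of all genes were called. With only the lines compared the share was 0.138% to 1.29% over the 4 clones. In E7 against E6, 2 as reported, the count was 5 with DESeq2 or the likelihood ratio test, 1 with a 2-fold threshold, 4 without those replicates and 1 to 5 with 1 library left out (5 without E6.2 replicate 3). Calls over all tested genes in E7 against E6 moved too, from 12.1% to 33.1% without those replicates and to 26.8% without E6.2 replicate 3. They were 19.3% with DESeq2, 16.2% with the likelihood ratio test and 3.24% with a 2-fold threshold. Over the 6 clone pairs, 11 as reported, the count of the 8 genes was 4 to 13 with 1 library left out. The mean of the 4 clones gave 0 throughout. An alternative chosen after seeing the data, without E6.2 replicates 1 and 3 and E7.2 replicate 3, gave 4 against parental cells (all in E7.1, where 17.6% of all tested genes were called, with *Tnfrsf13c* in E6.2 lost) and 4 in E7 against E6, and a second such alternative, with the counts of each clone summed as 1 sample, gave 0 in E7 against E6. The causes were not tested.

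Libraries sharing a replicate number had deviations correlated by 0.0531 on average, over 0.1 in 11 of 30 pairs. In 1 of 10 pairs of lines, E6.2 with E7.2, all 3 were over 0.1 (0.174 to 0.426). Replicate 1 of E6.2 with replicate 2 of E7.2 (0.170) and replicate 2 of E6.2 with replicate 1 of E7.2 (0.311) were over it too. Each deviation was taken from the mean of the line's own 3 libraries, so 1 unusual library per line moves all of these values. They cannot show that the numbers pair these lines. With a replicate block the counts were 1 against parental cells, 1 in E7 against E6 (*Traf2* lost) and 12 over the clone pairs, 3 of them in E7.2 against E6.2 (*Tnfrsf13b* gained).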
